A study of Mus musculus with 6 samples.

Results

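Small nucleolar RNA (snoRNA) genes were examined on 6 microarrays of LT-HSC from mice, the long-term stem cells of blood, which are the rare marrow cells that can rebuild the blood after a transplant. Members were the genes whose platform annotation gave a single symbol beginning with Snora or Snord and a number, with no filter on intensity. This gave 73 genes of 22180 measured on the table, 47 of the box C/D class (Snord) and 26 of the box H/ACA class (Snora). Another 27 snoRNA symbols stood only on probe sets that also carry other genes and were not used.

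The arrays held RNA from C57/BL6 bone marrow, sorted 4 months after transplantation. There were 3 control pools and 3 pools of animals expressing NPMc+, a nucleophosmin mutant that is found in the cytoplasm rather than the nucleolus. Each array was 1 pool of animals, and both groups had been transplanted. The labels give neither the promoter that drove the mutant, the cells it was expressed in, the age of the animals nor what the controls carried. Whether pools of the same number were processed together is not stated, but the deposited values tie them: the average of the control and the NPMc+ array of a pair is the same in pairs 1, 2 and 3, within 0.001 log2 units, for 100% of the 41345 probe sets. All differences below are therefore NPMc+ minus control within the 3 same-numbered pairs, in log2 units, where a difference of 1 is 2-fold. A level on 1 array is given for reading the pairs and carries no spread of its own beyond them.

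SnoRNAs are short RNAs of the nucleolus that guide chemical modification of ribosomal RNA by base pairing. Box C/D snoRNAs direct methylation of the ribose by fibrillarin, and box H/ACA snoRNAs direct conversion of uridine to pseudouridine by dyskerin. A few of both classes guide no modification that defines them and are instead needed to cut the ribosomal precursor. Most vertebrate snoRNAs are made from introns of host genes, many of which encode ribosomal proteins or have no coding role apart from their snoRNAs. Nucleophosmin is itself a nucleolar protein and has been reported to bind box C/D snoRNAs.

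A difference between the groups cannot check the stem cell label of either. The mean over 10 LT-HSC markers on the table was 6.28 to 6.41 log2 units in control and 6.90 to 7.03 in NPMc+. Of these markers 9 had higher values in NPMc+, and 6 reached an unadjusted p under 0.05 in limma. Over all genes that share was 8.19%, with 5.12% higher and 3.07% lower. Markers of other blood cells mostly had lower values in NPMc+. No detection call was made, so their presence in either group was not tested. In NPMc+ the means of Ms4a1 (3.56), Cd3g (3.62) and Klrd1 (3.83) lay below the array medians of 3.90 to 3.99. The mean over 9 B cell markers was 5.97 to 6.08 log2 units in control and 4.66 to 4.77 in NPMc+, with 9 of 9 lower and 7 at an unadjusted p under 0.05. All 6 erythroid markers were lower (list means 6.49 to 6.82 against 5.65 to 5.98, 5 at that p), as were 8 of 10 neutrophil markers (10.51 to 11.20 against 9.77 to 10.45, 5 at that p) and 6 of 7 T and NK cell markers (6.11 to 6.48 against 4.99 to 5.36, 4 lower and 1 higher at that p). By pair, the median of the neutrophil markers was -1.74 in pair 1, -1.03 in pair 2 and -0.02 in pair 3. On a log2 scale of intensities no marker can be read as 0. The part of these cells in the snoRNA values was not tested, and in bulk RNA fewer cells of a type and less RNA per cell cannot be told apart.

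The snoRNA genes did not shift in 1 direction as a class. Of the 73 genes, 31 were higher and 42 lower in NPMc+, with a median difference of -0.08, beside -0.01 over all 22180 genes. Box C/D genes divided into 22 higher and 25 lower, with a median of -0.01. Box H/ACA genes divided into 9 higher and 17 lower, with a median of -0.22. The 2 classes therefore lay 0.20 apart, box C/D above box H/ACA, but the order was not the same in each pair.

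The box C/D median was 0.01 in pair 1, 0.06 in pair 2 and 0.08 in pair 3. The box H/ACA median was 0.17 in pair 1, -0.55 in pair 2 and -0.11 in pair 3. Box C/D less box H/ACA was thus -0.16, 0.60 and 0.20 in pairs 1, 2 and 3, with an SD of 0.38 between pairs that exceeds the mean gap. When 1 pair was left out at a time, the box H/ACA median ran from -0.27 to 0.01 and the gap from -0.04 to 0.38.

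**Figure D1:**
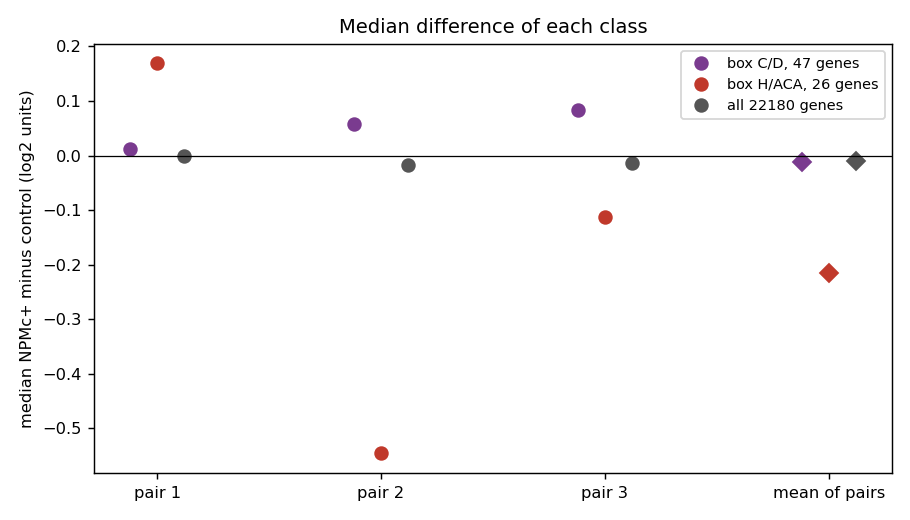
Median NPMc+ minus control in log2 units (vertical axis) for 47 box C/D genes, 26 box H/ACA genes and all 22180 genes, in each same-numbered pair (circles) and for the mean of the 3 pairs (diamonds). The box C/D circles stay between 0.01 and 0.08 and the diamond is at -0.01, while the box H/ACA circles run from 0.17 in pair 1 to -0.55 in pair 2.

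The snoRNA genes had a wider scatter than most genes, a trait that some other sets shared. The SD of the 3 pair differences had a median of 0.69 log2 units over the snoRNA genes, against 0.30 over all genes, and was alike in the box C/D class (0.69) and the box H/ACA class (0.68). An SD of 1 or more was found in 25 of the 73 (34.2%), 14 of the box C/D and 11 of the box H/ACA genes, where 2.39% of all genes reached it. Only 16 of the 73 had a smaller SD than the median gene. Levels were not matched: the median level was 5.86 for the snoRNA genes and 4.13 for all genes. Other sets read here were also wide, with a median SD of 0.90 for neutrophil markers, 0.63 for erythroid markers and 1.16 for Cajal body RNAs. It was 0.37 for B cell markers and 0.26 for noncoding host genes. No test of these differences in spread was made, and they are given as a description.

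**Figure D2:**
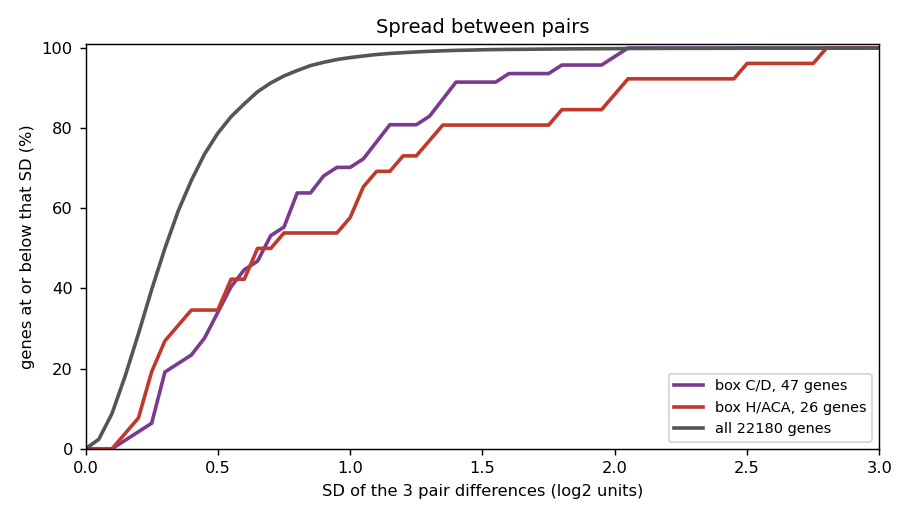
Share of genes (vertical axis, percent) whose SD of the 3 pair differences is at or below the value on the horizontal axis (log2 units), for 47 box C/D genes, 26 box H/ACA genes and all 22180 genes. Both snoRNA curves lie to the right of the curve of all genes, with medians of 0.69 and 0.68 against 0.30.

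Differences of 2-fold or more within a single pair were accordingly frequent and went both ways. In pair 1, 7 of the 73 genes reached 2-fold (2 higher, 5 lower), beside 2.27% of all genes. In pair 2, 20 reached it (7 higher, 13 lower), beside 6.28%. Pair 3 had 27 (14 higher, 13 lower), beside 5% of all genes. The pairs did not repeat each other over the 73 genes: the differences of pairs 1 and 2 correlated at 0.02, of pairs 1 and 3 at -0.03 and of pairs 2 and 3 at 0.04, where the same correlations over all genes were 0.16, 0.14 and 0.16. These are descriptions across genes, which share arrays and in part host genes.

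Examples of such scatter, chosen after their values were seen, show single pairs that stand far from the others. Snord61 differed by 4.09 in pair 2 and by 0.53 and 0.61 in pairs 1 and 3. Snora7a differed by -3.99 in pair 3 but by 0.98 and 0.69 in pairs 1 and 2. Snord92 was at 3.52 in pair 3 beside -0.23 and 0.44, and Snora34 at 3.10 in pair 3 beside -0.51 and -1.64. The control value of the outlying pair was 3.10 for Snord61, 3.75 for Snord92 and 3.21 for Snora34. These lay below the array medians of 3.90 to 3.99, unlike that of Snora7a (9.67). The fits gave Snora7a a mean of -0.77 ± 0.92 (SE) and Snora34 0.32 ± 0.82, intervals that hold both directions. Here and below the SE is that of limma, in which each gene's spread is drawn towards that of all genes. For genes as wide as these, it is smaller than the pairs alone would give.

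**Figure D3:**
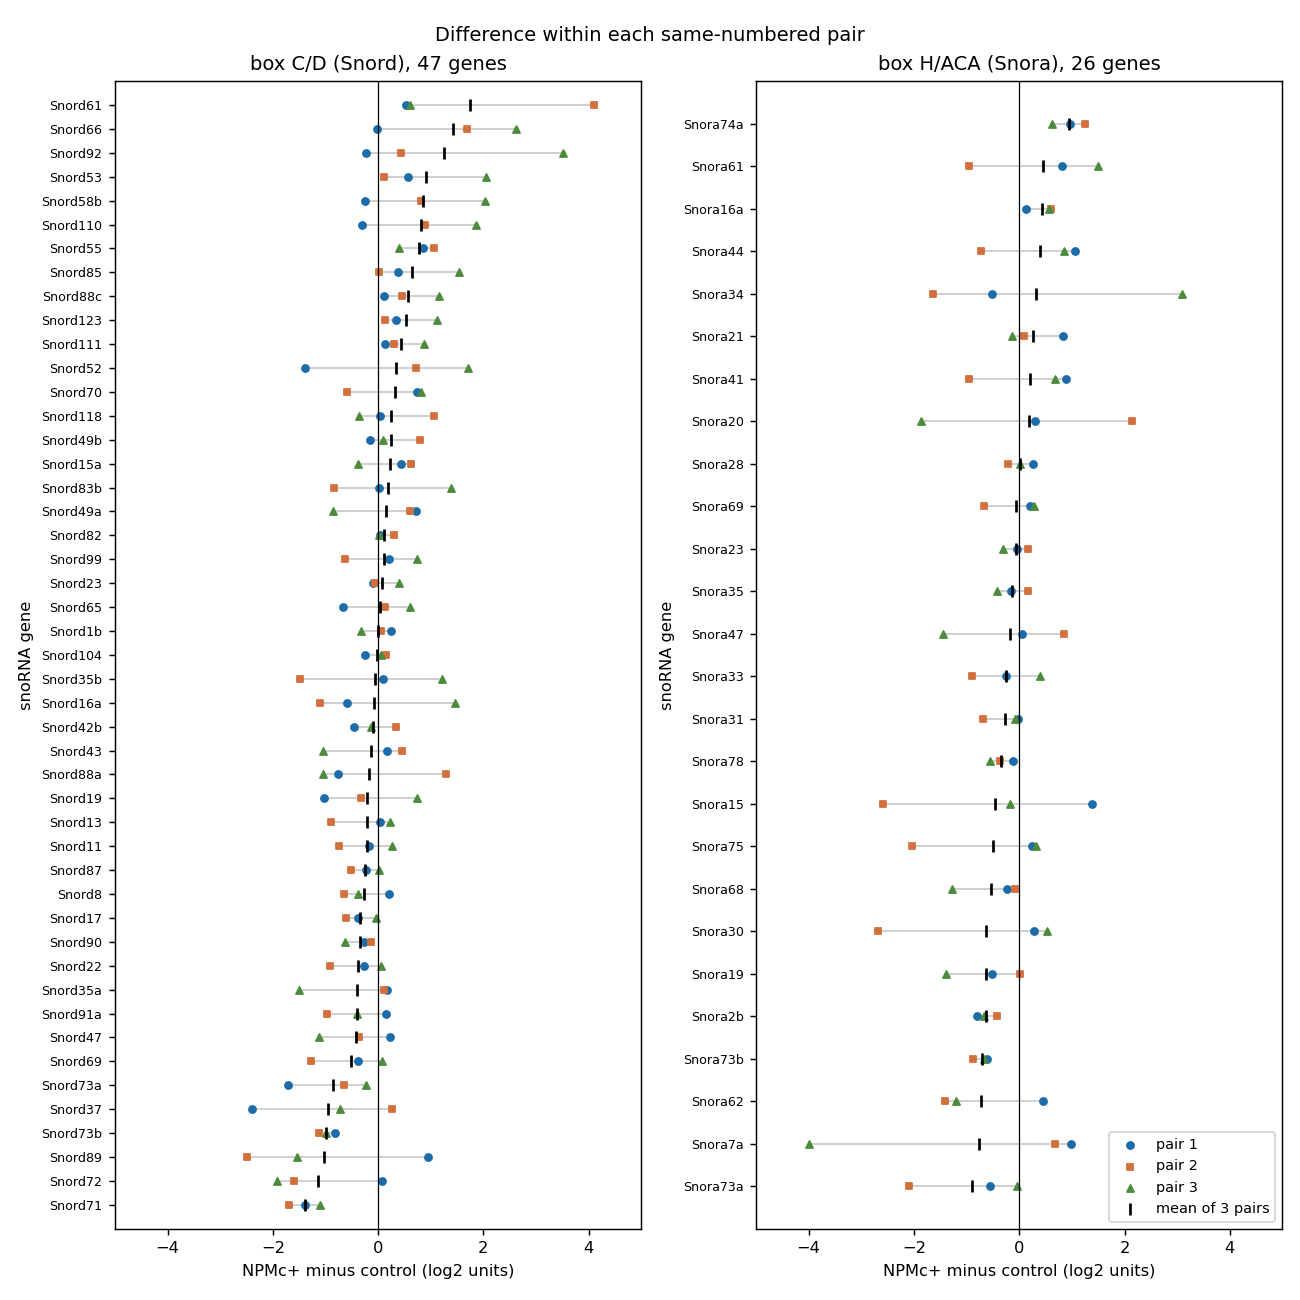
NPMc+ minus control in log2 units (horizontal axis) for each of the 73 snoRNA genes (rows, sorted by mean within the class), with 1 symbol for each same-numbered pair, a black bar for the mean and a grey line for the range. Most grey lines cross 0, and few genes, such as Snord71, Snord73b and Snora73b, have all 3 symbols close together on 1 side.

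No snoRNA gene passed a Benjamini-Hochberg adjusted p under 0.05 in the limma fit with the pair as a block, and none of the 22180 genes did. The smallest adjusted p among the snoRNA genes was 0.275. At an unadjusted p under 0.05 there were 13 of 73 (17.8%), 7 higher and 6 lower, where 8.19% of all genes were called (5.12% higher and 3.07% lower). This share depended on moderation, the step in which limma draws each gene's spread towards that of all genes. Without it, which was added after the data were seen, 5 of the 73 (6.85%) had an unadjusted p under 0.05, 1 higher and 4 lower, beside 5.82% of all genes. The same sign in all 3 pairs was found in 21 snoRNA genes (28.8%), 10 higher and 11 lower, beside 29.8% of all genes. The groups did not overlap in 21 snoRNA genes, beside 29.7% of all genes. As the deposited pairs share 1 mean, this restates the same sign in all 3 pairs and is not a further result. The same holds where the groups of a single gene are said below not to overlap.

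The 5 genes that stayed under that p without moderation were Snord71, Snord73b, Snora73b, Snora2b and Snora74a. Snord71 guides a methylation of large-subunit ribosomal RNA and gave the smallest p. Its level was 7.92, 8.08 and 7.78 log2 units in control replicates 1, 2 and 3 and 6.53, 6.38 and 6.68 in NPMc+. All NPMc+ arrays were below all control arrays. The difference was -1.39 ± 0.18 (moderated SE, 3 pairs), a 2.63-fold lower signal. In limma its unadjusted p was 2.29e-04 and its adjusted p 0.275.

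Snord73b, a methylation guide for large-subunit ribosomal RNA, had values of 5.89, 6.04 and 5.98 in control and 5.07, 4.92 and 4.98 in NPMc+. The groups were well apart, and the mean difference was -0.98 ± 0.16 (SE; 1.97-fold lower, unadjusted p = 8.35e-04 and adjusted p = 0.309 in limma). Snord73a, a relative from the same host gene, was at 7.29, 6.77 and 6.55 in control and 5.58, 6.11 and 6.32 in NPMc+. The groups did not overlap for it either, but the pairs were uneven, at -1.71, -0.66 and -0.23. It was 1.82-fold lower (-0.87 ± 0.29, unadjusted p 0.0247 in limma), and without pair 1 the difference was -0.44 with an unadjusted p of 0.125. Whether probes of the 2 genes read each other's RNA was not tested.

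Snora73b is a copy of the snoRNA known as U17, a box H/ACA RNA needed for processing of the small-subunit ribosomal RNA. Control replicates 1, 2 and 3 had 8.11, 8.24 and 8.14, and NPMc+ replicates 7.50, 7.37 and 7.47. All 3 pairs were lower by a similar amount (-0.61, -0.87 and -0.67), giving -0.72 ± 0.16 (SE; 1.64-fold lower, unadjusted p 4.13e-03 and adjusted p 0.411 in limma). Snora73a, the other copy, had pair differences of -0.55, -2.09 and -0.04 and a mean of -0.89 ± 0.38, with an unadjusted p of 0.0563. Both copies were on the same side, but only the first was called.

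Snora2b, a pseudouridylation guide, was measured at 5.26, 5.07 and 5.19 in control and 4.46, 4.65 and 4.52 in NPMc+. It was 1.55-fold lower without overlap of the groups (-0.63 ± 0.17 SE, unadjusted p 8.85e-03 in limma), and without pair 1 the value was -0.55 with an unadjusted p of 0.0609. Snora34, which lies in the same host gene, had the uneven pairs given above.

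Snora74a was the 1 gene of these 5 with a higher signal in NPMc+. This box H/ACA guide of large-subunit ribosomal RNA stood at 3.80, 3.66 and 3.97 in control and at 4.77, 4.92 and 4.60 in NPMc+. The groups were apart in every pair, with a difference of 0.95 ± 0.19 (SE; 1.93-fold higher, unadjusted p 1.99e-03 and adjusted p 0.379 in limma). The control mean of 3.81 was low, below the array medians of 3.90 to 3.99, and no detection call was made.

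**Figure D4:**
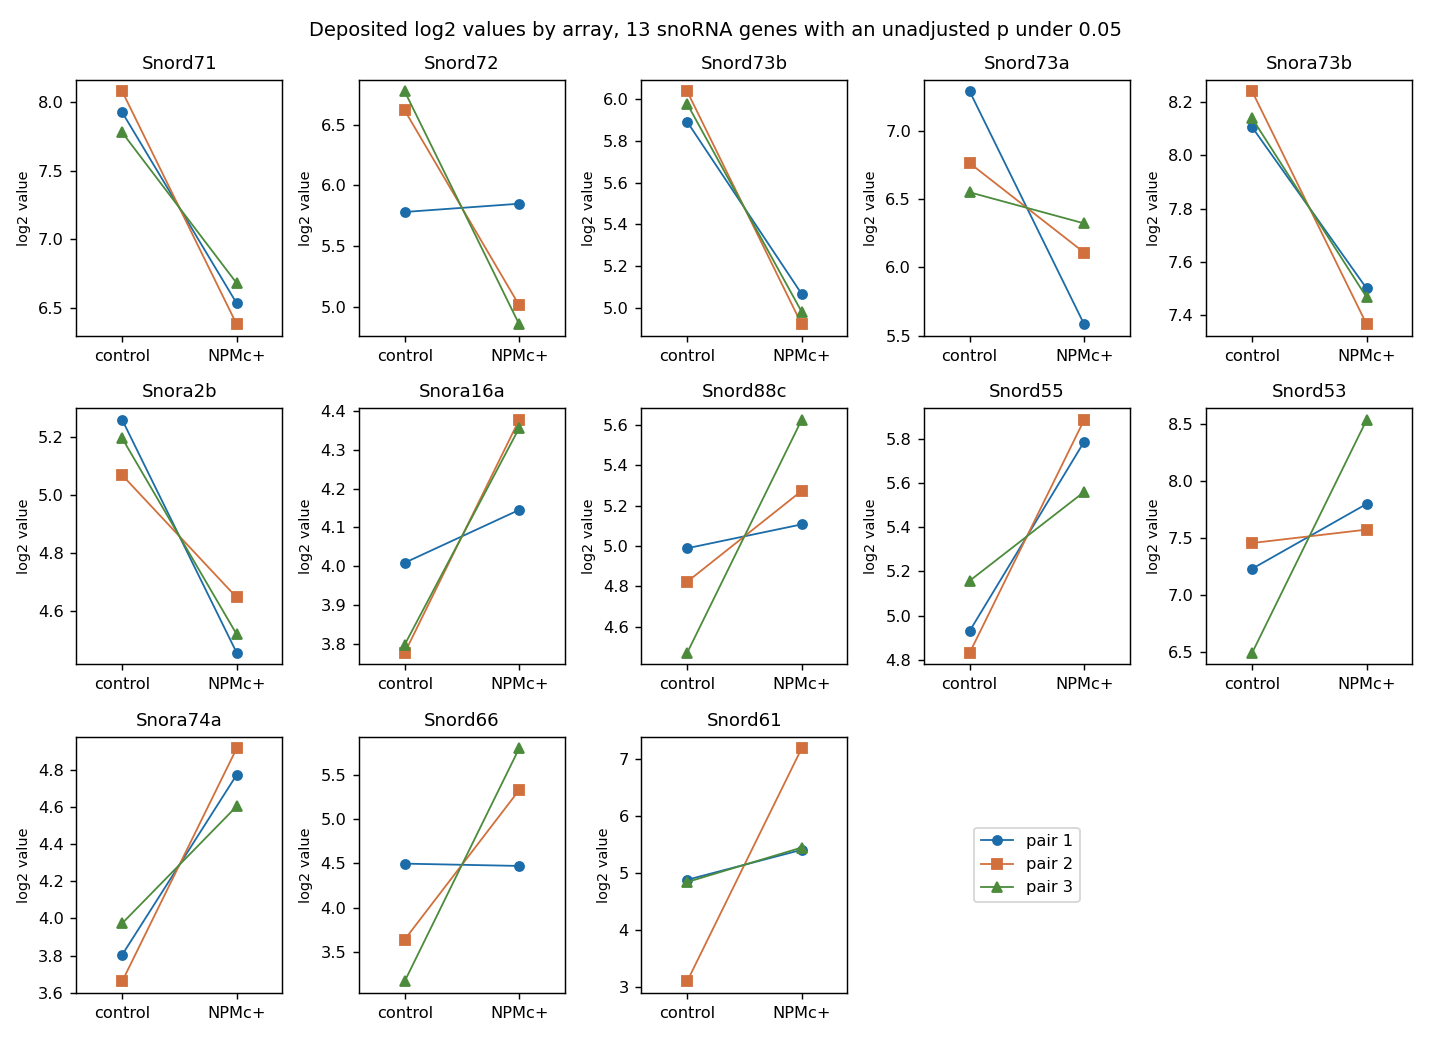
Deposited log2 value (vertical axis, own scale for each gene) on each control and NPMc+ array for the 13 snoRNA genes with an unadjusted p under 0.05 in limma; lines join same-numbered pairs, and panels run from the most negative to the most positive mean difference. The lines cross near their middle because the deposited values give each pair the same mean, and for Snord72 and Snord66 pair 1 is flat while the other pairs differ.

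The other 8 genes called at an unadjusted p were not called without moderation. Snord55, a methylation guide, had 4.93, 4.83 and 5.16 in control and 5.79, 5.89 and 5.56 in NPMc+. It was 1.71-fold higher with no overlap (0.77 ± 0.19 SE, unadjusted p 6.23e-03 in limma). Snord61, a guide for small-subunit ribosomal RNA, had 4.88, 3.10 and 4.84 in control and 5.41, 7.19 and 5.45 in NPMc+. The groups did not overlap, but the mean of 1.74 ± 0.68 (unadjusted p 0.0420 in limma) came to 0.57 without pair 2. The control value of pair 2 lay below the array medians of 3.90 to 3.99.

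Snord66, another small-subunit guide, had 4.50, 3.64 and 3.17 in control and 4.47, 5.33 and 5.80 in NPMc+, so that the groups overlapped. Its control mean of 3.77 lay below the array medians of 3.90 to 3.99. Its difference was 1.43 ± 0.47 (unadjusted p 0.0210 in limma), with 2.15 without pair 1 (unadjusted p 6.53e-04), 1.30 without pair 2 (0.0696) and 0.83 without pair 3 (0.0879). Snord72, a large-subunit guide, had 5.78, 6.62 and 6.77 in control and 5.85, 5.02 and 4.86 in NPMc+, also with overlap. Its difference of -1.15 ± 0.38 (unadjusted p 0.0225 in limma) became -1.76 without pair 1 (5.01e-04), -0.92 without pair 2 (0.0919) and -0.77 without pair 3 (0.104). In both genes pair 1 showed next to no difference, at -0.03 and 0.07.

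Snord53 was at 7.23, 7.46 and 6.50 in control and 7.80, 7.58 and 8.54 in NPMc+, higher in each pair but by 2.04 in pair 3 against 0.57 and 0.12. Its mean was 0.91 ± 0.36 (unadjusted p 0.0451 in limma), which came to 0.34 without pair 3 (unadjusted p 0.189) and 1.08 without pair 1 (0.0680). Snord88c, a large-subunit guide, was 1.49-fold higher, with pair differences of 0.12, 0.45 and 1.15 and an unadjusted p of 0.0473 in limma. Without pair 3 its difference was 0.28 (unadjusted p 0.250) and without pair 2 it was 0.64 (0.0764). Snora16a was 1.35-fold higher, with 0.14, 0.60 and 0.56 and an unadjusted p of 0.0497 in limma, just inside the bound of 0.05. Its control mean of 3.86 lay below the array medians of 3.90 to 3.99. It was not called without pair 2 (0.35, unadjusted p 0.170) or without pair 3 (0.37, 0.165). Just outside that bound lay Snora73a and Snord123, the latter at 0.53 ± 0.23 with an unadjusted p of 0.0577.

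The snoRNA genes with the highest signals were then read, which ranks probe sets and not the amount of RNA. Among box C/D genes these were Snord13, Snord104, Snord65, Snord49b, Snord17 and Snord16a. Snord13, an RNA that guides acetylation of small-subunit ribosomal RNA, had control values of 10.49, 10.96 and 10.40 and NPMc+ values of 10.52, 10.06 and 10.62, a difference of -0.21 ± 0.25 (95% interval -0.82 to 0.39). Snord104 had 10.11, 9.91 and 9.96 against 9.86, 10.06 and 10.01, with the narrow interval of -0.42 to 0.40 around -0.01. These arrays overlapped in both genes. Snord65 differed by 0.03 ± 0.26, Snord49b by 0.25 ± 0.23, Snord17 by -0.34 ± 0.18 and Snord16a by -0.08 ± 0.47, none at an unadjusted p under 0.05. Without pair 3, Snord16a was at -0.85 with an unadjusted p of 0.0115 in limma. It was at 0.18 without pair 1 and 0.43 without pair 2.

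Among box H/ACA genes the highest signals were those of Snora33, Snora75, Snora23, Snora31, Snora28 and Snora21. Snora33 had 10.76, 11.09 and 10.44 in control and 10.51, 10.19 and 10.84 in NPMc+, which overlap, for a difference of -0.25 ± 0.26. A second probe set of Snora33, with a lower mean of 7.15, gave -0.22, with all 3 pairs below 0. Snora28 had the smallest difference of the 6 at 0.02 ± 0.17 (95% interval -0.41 to 0.44), and Snora23 was at -0.06 ± 0.17. Snora31 differed by -0.27 ± 0.20 and Snora21 by 0.26 ± 0.23. Snora75 differed by -0.49 ± 0.47, which came from -2.04 in pair 2 beside 0.24 and 0.32. Snora19, the other gene with 2 probe sets, had the same value on both.

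Several snoRNAs that take part in cutting the ribosomal precursor were on the table. Snord118, known as U8 and needed for maturation of the large-subunit ribosomal RNA, had 7.36, 6.85 and 7.56 in control and 7.40, 7.91 and 7.20 in NPMc+. The groups overlapped and differed by 0.25 ± 0.29. Snord22, known as U22 and needed for the small subunit, differed by -0.38 ± 0.22 with pairs of -0.26, -0.92 and 0.05. Rnu3a, a gene of the box C/D RNA U3 whose symbol falls outside the naming rule, differed by -0.19 ± 0.21. None of these had an unadjusted p under 0.05 in limma.

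Host genes were assigned as the RefSeq genes (GRCm38.p6, used here for which gene lies in which) whose span holds the snoRNA gene. A holding gene was found for all but 3 snoRNA genes, Snord118, Snord13 and Snord89. For 55 snoRNA genes, 32 box C/D and 23 box H/ACA, it was a single gene with a probe set of its own, 41 host genes in all. The strand of the snoRNA genes was not used.

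SnoRNA genes and their hosts showed no common direction. The signs matched in 23 of the 55 and were opposite in 32. The median absolute difference of the 41 hosts was 0.14. At an unadjusted p under 0.05 in limma 1 host was higher and 2 were lower, beside 5.12% and 3.07% of all genes. With host differences this small, signs and correlations cannot tell whether snoRNA and host change together. The differences of snoRNA and host correlated at -0.14 over the 55 genes, and at -0.05, -0.03 and -0.11 within pairs 1, 2 and 3, as a description over genes that partly share a host. Hosts differed less: their differences ran from -0.57 to 0.49, where those of the snoRNA genes ran from -1.15 to 1.74. The median SD between pairs was 0.24 for the hosts and 0.76 for these snoRNA genes, and in 48 of the 55 the snoRNA gene had the larger SD. Levels were not matched here either. Host control means ran from 2.47 (Htr2c) to 12.65 (Rps12), where the median level of the 73 snoRNA genes was 5.86.

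**Figure D5:**
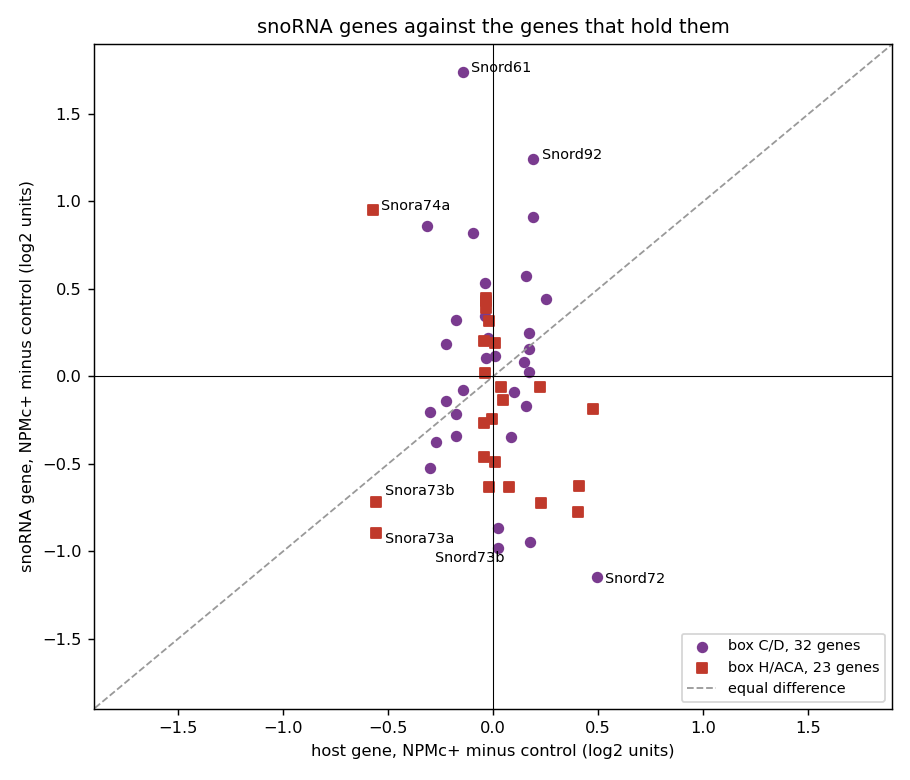
NPMc+ minus control of 55 snoRNA genes (vertical axis) against that of the gene that holds each (horizontal axis), both in log2 units on the same scale; the dashed line marks equal differences. The points spread vertically around small host differences, with Snora73a and Snora73b near the dashed line and Snora74a far above it.

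Snhg3, the noncoding host of both U17 genes, was lower with them. It differed by -0.43, -0.47 and -0.77 in pairs 1, 2 and 3, a mean of -0.56 ± 0.17 (SE; 1.47-fold lower, unadjusted p 0.0153 and adjusted p 0.511 in limma), beside -0.72 for Snora73b and -0.89 for Snora73a. Snhg4, the noncoding host of Snora74a, went the other way from its snoRNA. Snhg4 was lower in all pairs (-0.37, -0.92 and -0.42; mean -0.57 ± 0.19, unadjusted p 0.0204 in limma), while Snora74a was higher in all (0.97, 1.25 and 0.63). Snhg3 was no longer called without pair 3 (-0.45, unadjusted p 0.0799), and Snhg4 neither without pair 2 (-0.40, 0.101) nor without moderation (0.0829). The difference between snoRNA and host was not tested in either case. Snora74a had a low control mean of 3.81, where that of Snhg4 was 9.02. Zbed3, the 1 compared host called higher, differed by 0.47 ± 0.19 (unadjusted p 0.0425 and adjusted p 0.589 in limma). Snora47, which it holds, differed by -0.18.

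Rps3a1, a ribosomal protein gene that holds Snord73a and Snord73b, differed by 0.03 ± 0.17, where both snoRNAs were lower, by -0.87 and -0.98. Rpl37, the host of Snord72, differed by 0.49 ± 0.30 beside -1.15 for the snoRNA. The probe set of Rpl37 had low levels, 3.98 in control and 4.47 in NPMc+, near the array medians of 3.90 to 3.99. It also gave the upper end of the host range above. Rbmx, which holds Snord61, differed by -0.14 ± 0.27 and Kansl2, which holds Snora2b, by -0.02 ± 0.21. Snord71 lies in Ap1g1, a gene of vesicle transport, and also in a noncoding gene. Ap1g1 differed by -0.05 ± 0.16 beside -1.39 for Snord71.

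Of the 11 hosts that hold more than 1 of the snoRNA genes, 6 had members on 1 side only and 5 had members on both. Snhg12, a noncoding host, holds Snora16a, Snora44, Snora61 and Snord99. The last 3 shared a low pair 2: Snora44 had 1.06, -0.73 and 0.85, Snora61 0.81, -0.96 and 1.50, and Snord99 0.21, -0.63 and 0.74. Snora16a, with 0.14, 0.60 and 0.56, did not share it. Snhg12 itself had -0.14, -0.37 and 0.40, a mean of -0.04 ± 0.20. Without pair 2, Snora44 was at 0.96 and Snora61 at 1.15 (unadjusted p 4.02e-03 and 3.88e-03 in limma), against 0.39 and 0.45 with all pairs. That fit leaves out the pair of opposite sign. Without pair 1, Snora44 was at 0.06 and Snora61 at 0.27. Without pair 3 they were at 0.17 and -0.08, and neither gene was called in these fits. Snord49a, Snord49b and Snord65, all held by 2410006H16Rik, differed by 0.15, 0.25 and 0.03, and their host by 0.17 ± 0.16. Snord49a was at 0.66 without pair 3 (unadjusted p 0.0219 in limma), but at -0.13 without pair 1 and -0.07 without pair 2. In Wdr43, a gene of small-subunit assembly, Snord53 and Snord92 both had their largest difference in pair 3, at 2.04 and 3.52, where Wdr43 was at 0.38.

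The promoters of Rps3a1, Snhg3 and Snhg12 are shown, chosen after their values were seen, as examples of hosts that hold more than 1 snoRNA gene with mean differences of 1 sign. Each run gives 60 bases before the start site and 20 from it on, 5′ to 3′ on the gene's strand, from RefSeq sequences of build GRCm38.p6, and capitals mark the longest unbroken run of C or T within 20 bases of the start. The windows are chr3:86142649-86142728 on the minus strand for Rps3a1, chr4:132353667-132353746 on the minus strand for Snhg3 and chr4:132308618-132308697 on the plus strand for Snhg12.
Rps3a1: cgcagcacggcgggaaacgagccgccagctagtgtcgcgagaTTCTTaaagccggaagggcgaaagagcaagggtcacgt
Snhg3: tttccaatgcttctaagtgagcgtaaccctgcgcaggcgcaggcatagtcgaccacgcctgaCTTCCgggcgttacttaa
Snhg12: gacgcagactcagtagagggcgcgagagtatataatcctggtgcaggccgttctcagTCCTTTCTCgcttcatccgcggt
Snhg12 has a run of 9 C or T bases across its start, and the other two have runs of 5. Many snoRNA host genes are known to begin their RNA with a C followed by such a tract. A run of 8 or more within 20 bases was found, on the gene's strand, in 12 of 49 host promoters (24.5%) and in 16.0% of all 32851 promoters in the table. A C at the annotated start followed by at least 4 C or T bases stood in 4 of 45 host genes (8.89%) and 3.01% of all genes. These matches describe annotated starts, which can be some bases from the true ones.

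None of the core proteins of snoRNA particles on the table had an unadjusted p under 0.05 in limma. Of the box C/D core, Nop58 differed by -0.18 ± 0.16, Nop56 by -0.10 ± 0.17 and Snu13, which binds the C/D motif first, by 0.07 ± 0.17. Nop58 was lower in all 3 pairs (-0.14, -0.16 and -0.23) and had an unadjusted p of 0.0205 without moderation. Nop56 was at -0.40 (unadjusted p 0.0864) as the mean over its probe sets. Fibrillarin was not analysed here. Of the box H/ACA core, dyskerin (Dkc1) differed by 0.06 ± 0.18, Gar1 by 0.22 ± 0.19, Nhp2 by -0.02 ± 0.23 and Nop10 by 0.01 ± 0.17. Nucleophosmin (Npm1) was at -0.19 ± 0.16, and its probe set does not check the labels because they do not say what form was expressed.

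Of 14 genes of snoRNA-protein assembly and transport, 7 were higher and 7 lower, and none had an unadjusted p under 0.05 in limma. Of 6 genes of trimming and turnover, 1 had: Parn, a deadenylase that trims box H/ACA and telomerase RNA ends, was 1.48-fold higher (0.57 ± 0.20 SE, unadjusted p 0.0307). Parn was not called without moderation (unadjusted p 0.134), without pair 2 (0.138) or without pair 3 (0.105). Of 16 noncoding host genes 13 were lower and 3 higher, with a median of -0.13, and only Snhg3 and Snhg4 had an unadjusted p under 0.05. For all genes the share called lower at that p was 3.07%.

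Other small structural RNAs were read beside the snoRNA genes. The 5 Cajal body RNAs (Scarna genes), which guide modification of spliceosomal RNA, had 3 higher and 2 lower members, none called, and a median SD between pairs of 1.16. The 7 further RNAs had a median SD of 0.33. Of these, Rpph1, the RNA of ribonuclease P, was 1.45-fold higher (0.53 ± 0.18 SE, unadjusted p 0.0227 in limma) and Rnu5g was 1.69-fold lower (-0.76 ± 0.31, 0.0469). Neither was called without moderation (unadjusted p 0.0697 and 0.246), without pair 2 (0.0584 and 0.158) or without pair 3 (0.115 and 0.218). Rnu5g was uneven, with pairs of 0.16, -1.05 and -1.38, a mean of -1.21 without pair 1 and -0.45 without pair 3, and an unadjusted p of 0.0560 after quantile normalization. Terc, the box H/ACA type RNA of telomerase, differed by 0.51 ± 0.34, and Rn7sk, an abundant nuclear RNA, by 0.08 ± 0.16.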

How the data were processed

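Per the labels, total RNA was taken from sorted cells with a column kit (such kits retain short RNAs poorly) and about 5 ng was amplified and labelled. Whether a probe set reads mature snoRNA, its precursor or the host intron was not tested. The deposited table holds log2 values of 41345 probe sets, and the submitters' processing notes name RMA (version and build not given in the sources used here). Median array values were 3.90 to 3.99; the number of arrays limits the precision.

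Same-numbered arrays were tied (tolerance 0.001 for 100% of probe sets; at most 0.343% under the 5 other pairings), and their deviations correlated at -1. The main fit therefore used the replicate number as a block, which leaves 2 residual degrees of freedom, with 4.25 prior ones. Of the probe sets, 23521 had 1 symbol, standing for 22180 genes; the probe set with the highest mean was used. All were fitted without a filter in limma 3.58.1 (R 4.3.3, lmFit, eBayes, two-sided, Benjamini-Hochberg over all genes). The fit was also run on simulated data, which gave no separate error rate for genes of wide scatter. Figures used matplotlib 3.10.9. Intervals are 95%.

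Named were all snoRNA genes at an unadjusted p under 0.05, the 6 with the highest mean in each class, and those of hosts with 3 or more. The members, lists and rules were chosen with earlier results of these data known. No strand was given for host assignment. SnoRNA sequences were not analysed here.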

Additional observations from a re-analysis of the deposited data

How the results depend on the processing

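The fit without the replicate block counts the tied arrays as independent. It put 6 snoRNA genes past the adjusted threshold against 0 with the block (Snord71, Snord73b, Snora73b, Snora74a, Snora2b and Snord55). Over all genes it put 826 past that threshold against 0. It called 11 snoRNA genes lower at an unadjusted p under 0.05 against 6. In either direction it called 20 snoRNA genes (27.4%) at that p, beside 24.15% of all genes. The count of higher genes, 7, was 4 after quantile normalization and 1 without moderation of the spread, an alternative chosen after seeing the data. After quantile normalization 16.4% of snoRNA genes were called in either direction, beside 7.35% of all genes. Without moderation the shares were 6.85% and 5.82%. Leaving out 1 pair at a time gave 6 to 10 higher and 8 to 10 lower genes, 0 past the adjusted threshold, and box C/D medians of -0.068 to 0.103 log2 units. Of the 13 named genes, Snord71, Snord73b, Snora73b and Snora74a were called at an unadjusted p in every setting that gave them a value, and 8 were lost without moderation. The cause of these changes was not tested. Filters at the 25th and 50th percentile kept 71 and 61 of the 73 genes, and 11 were called under each. These were 15.5% and 18.0% of the snoRNA genes kept, beside 8.97% and 10.1% of all genes kept. No called gene changed sign in the settings run. With 3 pairs, small differences were not detectable for snoRNA genes. Their median moderated SE was 0.27 log2 units against 0.18 for all genes, where the median SD between pairs was 0.69 against 0.30.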
